A study of Mus musculus with 54 samples.

Results

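In testis of the compound mutant (CM), 5814 H3K4me3 peaks had no counterpart in wild type (WT) testis. These CM-only peaks were chosen by the H3K4me3 measurement itself: a peak of the CM list was taken when it shared no base with any peak of the WT list. They made up 28.5% of the 20432 CM peaks. The other 14618 CM peaks overlapped a WT peak by at least 1 bp and are called shared peaks. The WT list held 34347 peaks, of which 16684 had no overlapping CM peak, so the CM list was the shorter of the 2.

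The series examined male germ cells of C57BL/6 mice aged 3 months with 4 genotypes: WT, CTCF HET (*Ctcf*+/-), BORIS KO (*Boris*-/-) and CM (*Ctcf*+/- *Boris*-/-, named DKO in the sample labels), so that the CM animals lacked both copies of *Boris* and kept 1 copy of *Ctcf*. Chromatin immunoprecipitation followed by sequencing (ChIP-seq) for H3K4me3, RNA polymerase II (Pol2), CTCF and BORIS was made on germ cell-enriched preparations, each pooled from 4 mice, which can still hold somatic cells of the testis. H3K4me3 was measured in 1 library per genotype and only in WT and CM, so the presence of a peak in CM and its absence in WT have no replicate check, and neither CTCF HET nor BORIS KO shows which allele goes with it. RNA-seq covered samples labelled as testis, which the methods describe as germ cell preparations of pooled mice and which are called whole testis below (3 libraries for each of the 4 genotypes) and round spermatids and spermatocytes purified from the same 4 genotypes (3 libraries each, 2 for WT spermatocytes), of which WT and CM are compared here.

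Trimethylation of lysine 4 on histone H3 is laid down by SET1 and MLL complexes around the start sites of genes that are transcribed or poised for transcription, most strongly where the DNA is rich in CpG dinucleotides. In meiotic cells PRDM9 also places the mark away from promoters, at sites of recombination. CTCF is a zinc finger protein that binds many sites across the genome and organises chromatin loops, and BORIS, encoded by *Ctcfl*, is its paralog that is normally made in male germ cells and binds a part of the same sites.

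The sequences upstream of 5 genes with a CM-only peak at their start are shown first, because promoters with a CM-only peak and promoters without a peak differed in CpG content. Each run holds the 250 bases before an annotated start in the mouse genome NCBIM37 (mm9), read on the strand of the gene, and capitals mark CpG dinucleotides. The first 4 genes had the smallest p-values for higher RNA in CM testis, and *Kit* is the receptor gene on which the study concentrated.
Htra1, chr7:138079375-138079624, plus strand: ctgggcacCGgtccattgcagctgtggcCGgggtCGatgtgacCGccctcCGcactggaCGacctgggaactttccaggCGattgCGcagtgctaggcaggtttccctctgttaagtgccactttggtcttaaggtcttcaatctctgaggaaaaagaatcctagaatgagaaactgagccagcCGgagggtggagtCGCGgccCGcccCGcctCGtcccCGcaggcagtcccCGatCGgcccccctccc
Nid2, chr14:20570229-20570478, plus strand: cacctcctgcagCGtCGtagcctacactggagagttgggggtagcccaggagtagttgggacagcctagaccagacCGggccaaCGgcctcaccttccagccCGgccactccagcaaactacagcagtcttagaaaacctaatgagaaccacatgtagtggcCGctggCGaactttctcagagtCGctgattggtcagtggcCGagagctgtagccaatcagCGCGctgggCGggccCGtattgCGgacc
Fam115a, chr6:42643087-42643336, minus strand: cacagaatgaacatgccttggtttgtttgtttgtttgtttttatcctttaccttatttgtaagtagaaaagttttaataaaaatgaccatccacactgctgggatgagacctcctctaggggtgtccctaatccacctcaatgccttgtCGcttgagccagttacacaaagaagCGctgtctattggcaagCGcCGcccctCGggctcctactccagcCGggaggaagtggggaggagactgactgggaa
Gadd45a, chr6:66987452-66987701, minus strand: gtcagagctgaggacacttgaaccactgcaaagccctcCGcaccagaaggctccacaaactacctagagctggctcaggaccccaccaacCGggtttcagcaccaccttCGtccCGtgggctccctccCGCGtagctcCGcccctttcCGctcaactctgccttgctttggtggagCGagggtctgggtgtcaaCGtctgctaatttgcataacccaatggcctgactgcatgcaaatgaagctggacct
Kit, chr5:75970691-75970940, plus strand: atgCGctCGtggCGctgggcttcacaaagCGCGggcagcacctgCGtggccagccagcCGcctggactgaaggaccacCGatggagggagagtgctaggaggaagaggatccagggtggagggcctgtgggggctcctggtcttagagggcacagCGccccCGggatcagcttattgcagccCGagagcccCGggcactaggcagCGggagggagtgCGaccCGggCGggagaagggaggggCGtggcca
The runs hold 17 CpG upstream of *Htra1*, 14 upstream of *Nid2*, 6 upstream of *Fam115a*, 10 upstream of *Gadd45a* and 17 upstream of *Kit*. A GC box, the letters GGGCGG on either strand that SP1 family factors bind, was found in all 5 runs. A CCAAT box, the letters CCAAT on either strand, was found upstream of *Nid2*, *Fam115a* and *Gadd45a* but not of *Htra1* or *Kit*.

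Among all annotated start sites, the window from 250 bases before to 50 bases after the start was CpG-rich at 50.9% of the 4751 starts within 1 kb of a CM-only peak. Here CpG-rich means a GC content above 50% and a CpG count above 0.6 of that expected from base composition. The share was 72.3% of 32181 starts near a shared peak, 7.53% of 47890 starts with no H3K4me3 peak and 34.4% of all 86883 starts. Promoters with a CM-only peak thus lay between the shared ones and those without the mark. Peak strength was not matched in these shares. The GC box followed the same order, with 58.1% of starts near CM-only peaks, 62.4% near shared peaks, 14.2% without a peak and 34.9% of all starts. The letters TATAAA on either strand ran the other way, with 7.41%, 5.70%, 18.3% and 12.9%. The CCAAT box was at 35.6%, 35.6%, 35.7% and 35.5%. The 2061 starts near WT-only peaks had 28.8% CpG-rich windows, 34.5% with a GC box, 31.1% with a CCAAT box and 11.6% with TATAAA. Away from promoters, CM-only peaks were rarely CpG-rich: the central 500 bp met the same criterion in 7.27% of them, against 50.2% of the CM-only peaks at promoters, and the corresponding shares of shared peaks were 10.9% and 66.7%.

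CM-only peaks were weaker and narrower than shared peaks. Their median MACS score, a value of the deposited list whose scale no source used here states, was 78.5 with a range from 50 to 772. The median was 306 for shared peaks. Their median width was 1018 bp against 1913.5 bp, and they covered 6.43 Mb against 31.6 Mb. WT-only peaks had a median score of 74.7 and a median width of 596 bp, and all WT peaks a median width of 728 bp, so CM-only peaks were wider than the WT-only ones. These values come from the list the peaks were chosen from and are a description. The 114 CM-only peaks within 100 bp of a WT peak had a median score of 80.3 and a median width of 923.5 bp, and the 85 shared peaks with an overlap of at most 100 bp had 80.6 and 1008 bp. For all CM-only peaks the median distance to the nearest WT peak was 16786.5 bp, the middle 50% lay between 4755.5 and 42629 bp, and 721 lay within 1 kb.

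The 5 CM-only peaks with the highest score had scores from 532 to 772. The first, chr6:135681347-135684285 with a score of 772, lay at the start of *Gm14329* and within a transcript of *Grin2b*, the gene of a glutamate receptor subunit. The second, chr2:181313998-181317058 with a score of 619, lay at *Gm16119* and *Uckl1*, which encodes a uridine-cytidine kinase-like protein. The next were at *Stard4*, a cholesterol transfer protein (score 586), and at *Spred2*, an inhibitor of Ras-MAPK signalling (chr11:19823759-19826315, score 546). The fifth, chr3:96303370-96306412 with a score of 532, was 10718 bp from the nearest annotated start, that of a U1 small nuclear RNA. The widest CM-only peak spanned 5243 bp at chr3:96360447-96365689, over the starts of *Txnip*, an inhibitor of thioredoxin that is induced by glucose, and of Gm15441. The next 4 in width measured 4431, 3662, 3625 and 3611 bp and overlapped transcripts of *Itln1*, *Ust*, *9130014G24Rik* and *Elavl1*, and of these only the peak at *9130014G24Rik* reached within 1 kb of a start.

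About 2 in 5 CM-only peaks were promoter peaks. Within 1 kb of an annotated start lay 2277 of the 5814, or 39.2% (95% Wilson interval 37.9 to 40.4, which here and below covers counting error only), against 72.7% of the shared peaks. Gene bodies held 29.1% against 11.0%, and intergenic DNA 31.8% against 16.3%. The centre of a CM-only peak was a median of 4832 bp from the nearest start, while that of a shared peak was 352 bp away. Within 500 bp of a start were 29.8% of the CM-only and 58.4% of the shared peaks. As the plot of peak position shows, CM-only peaks near a start were centred just downstream of it, as shared peaks were, and the first 250 bp after the start held 732 of them. By chromosome, the CM-only share of CM peaks ran from 23.2% on chromosome 11 to 35.2% on the X chromosome (154 of 438, Wilson interval 30.8 to 39.7), apart from the Y chromosome with 5 of 9 peaks.

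**Figure D1:**
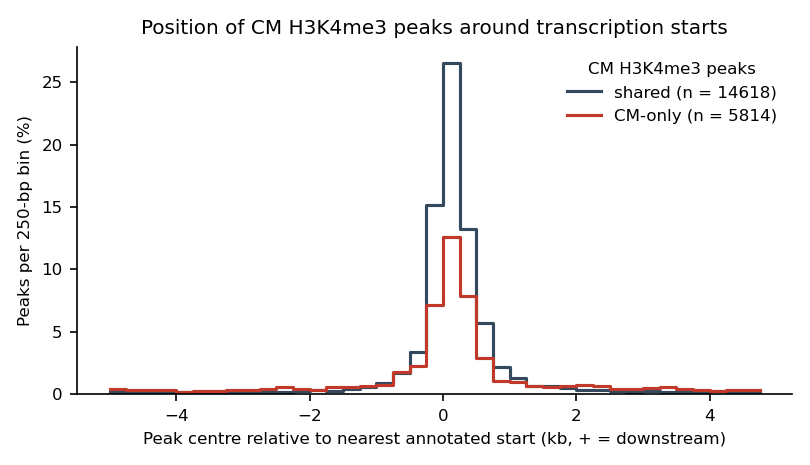
Percent of CM H3K4me3 peaks (y axis) by the position of the peak centre relative to the nearest annotated transcription start in 250-bp bins (x axis, kb, positive is downstream), for 5814 CM-only and 14618 shared peaks. Both classes are highest in the bin from 0 to 250 bp downstream, which holds 12.6% of the CM-only peaks.

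Pol2 was measured independently of the rule, in lists combined from 2 replicates per genotype. A CM Pol2 peak overlapped 26.7% of CM-only peaks (interval 25.6 to 27.8) and a WT Pol2 peak 19.3% (18.3 to 20.4). Shared peaks carried far more, with 77.6% in CM and 71.5% in WT. Of the CM-only peaks, 721 (12.4%) had Pol2 in CM only, 292 (5.02%) in WT only, 831 in both genotypes and 3970 (68.3%) in neither. The excess of Pol2 in CM lay at promoters: 448 of the 2277 promoter peaks (19.7%) had Pol2 in CM only and 70 (3.07%) in WT only. Away from promoters these numbers were close, 273 against 222 of 3537. Shared promoter peaks also leaned towards CM, with Pol2 in CM only at 1322 (12.4%) and in WT only at 247 (2.32%) of 10627, so a lean towards CM at promoters was not particular to CM-only peaks.

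Because CM-only peaks were weaker, they were also set beside shared peaks of similar CM score. In the classes 50 to 60, 60 to 80, 80 to 120, 120 to 200 and 200 or more, 1481, 1521, 1557, 903 and 352 peaks were CM-only, which was 71.7%, 62.4%, 50.9%, 28.8% and 3.62% of each class. The share at promoters then came close to that of shared peaks in the middle classes, 41.6% against 44.8% at scores of 80 to 120 and 55.8% against 58.1% at 120 to 200. The share with a CpG-rich central 500 bp was also close below a score of 200. It was 16.2% against 16.7% at 50 to 80, 24.6% against 26.2% at 80 to 120 and 38.1% against 36.7% at 120 to 200. At 200 or more it was 53.7% against 64.6%. Pol2 remained lower at every score. At 80 to 120, 28.5% of CM-only and 49.7% of shared peaks had a CM Pol2 peak, and at 200 or more 64.5% and 92.4% did. The gap was wider for WT Pol2, with 20.6% against 47.9% at 80 to 120 and 29.5% against 84.1% at 200 or more. At a score of 50 to 60 the 2 genotypes were alike on CM-only peaks, 16.5% with CM Pol2 and 15.8% with WT Pol2, whereas from 200 up CM exceeded WT by the most of the 5 classes.

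**Figure D2:**
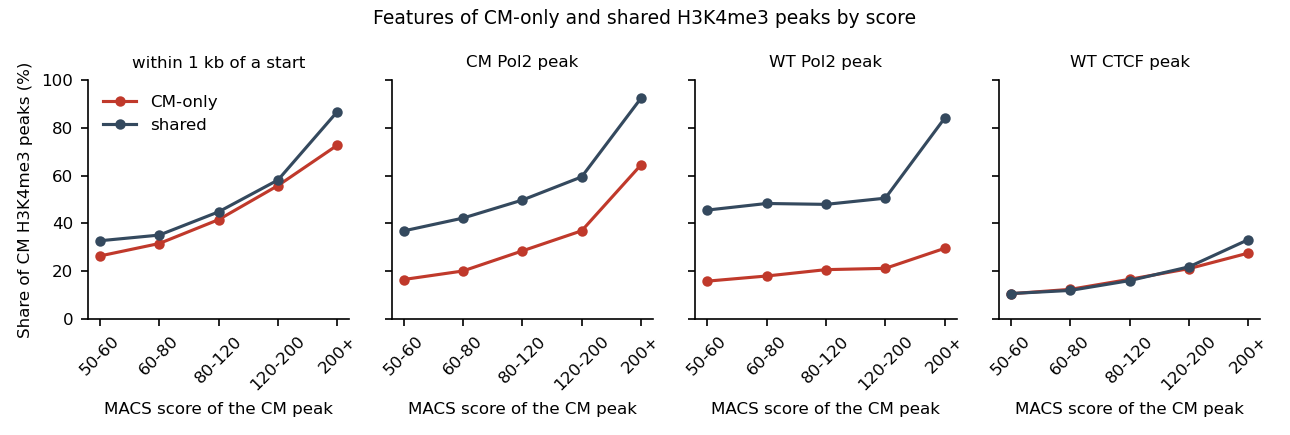
Percent of CM H3K4me3 peaks (y axes) that lie within 1 kb of a start or overlap a CM Pol2, WT Pol2 or WT CTCF peak, in 5 classes of the MACS score of the CM peak (x axes), for CM-only and shared peaks. The lines nearly coincide for WT CTCF and stay apart for Pol2 in both genotypes.

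CTCF and BORIS peaks overlapped smaller shares of the CM-only peaks than of the shared peaks. WT CTCF overlapped 889 of the CM-only peaks (15.3%) and 27.5% of the shared ones, and WT BORIS overlapped 5.61% and 15.6%. Within score classes the CTCF shares were close, 16.6% against 16.0% at 80 to 120, 21.0% against 21.8% at 120 to 200 and 27.6% against 33.2% at 200 or more. CM-only peaks held 944 WT CTCF peaks, of which 41.4% were still listed in CM testis (interval 38.3 to 44.6). That share was 31.8% in shared H3K4me3 peaks and 56.1% over all 34625 WT CTCF peaks. The median height of the WT CTCF peaks ran in the same order, at 407 in CM-only peaks, 319 in shared peaks and 491 over all. The part of height in these shares was not tested. Of the 944, 32.3% also had a WT BORIS peak, against 39.7% in shared peaks and 17.5% of all. CM CTCF was listed at 6.11% of the CM-only peaks and 9.31% of the shared peaks. Of the 362 CM CTCF peaks in CM-only H3K4me3, 10 had no WT CTCF counterpart. The counts were 38 of 1418 in shared H3K4me3 peaks and 1922 of 21525 over all CM CTCF peaks. Newly listed CTCF was thus about as rare in CM-only as in shared peaks.

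To set the peaks beside RNA, each was linked to genes with an annotated start within 1 kb. A gene with a CM-only peak and no WT H3K4me3 peak in its windows is called a CM-only promoter gene. There were 1826 such genes among 33825 annotated symbols (5.4%), 1544 of them protein-coding, 101 processed transcripts, 100 lincRNAs, 42 pseudogenes and 24 miRNA genes. The count table listed 1574 of them, and 1376 passed the low-count filter in the comparison of CM with WT whole testis. Another 12125 symbols had peaks of both genotypes at their starts, 869 had WT peaks only and 19005 had none. In WT whole testis 25.7% of the 1574 listed CM-only promoter genes had a mean below 1 CPM, a count scaled to the effective size of its library,, and in the purified cells, whose tables were normalised separately, 63.6% of 1577 listed genes were below 1 CPM in round spermatids and 71.1% in spermatocytes.

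Whole testis libraries held 10437683 to 42055813 counts, those of WT and CM round spermatids 50861159 to 98545423 and those of WT and CM spermatocytes 70716315 to 83897506. *Ctcf*, at 47.0, 39.9 and 40.7 CPM in WT, was at 27.4, 26.9 and 24.0 CPM in CM testis, a log2 change of -0.74 ± 0.21 (SE, edgeR adjusted p = 0.0329), with all CM libraries below all WT libraries. *Ctcfl* was too low to be tested, at 0.531, 0.582 and 0.688 CPM in WT and 0.201, 0.122 and 0.156 CPM in CM testis. Both followed their labels in whole testis. In the purified cells the libraries labelled CM did not have less *Ctcf* RNA than WT: it was at 172, 44.6 and 39.5 CPM against 48.7, 31.3 and 29.4 CPM in WT round spermatids (log2 change 1.29 ± 0.54, edgeR adjusted p = 0.235) and at 85.9, 34 and 33 CPM against 35.2 and 33.3 CPM in WT spermatocytes (0.62 ± 0.43, adjusted p = 0.376). The library of replicate 1 stood apart in both cell types, and the other libraries overlapped WT. *Ctcfl* was at 2.55, 1.7 and 1.11 CPM in round spermatids labelled CM and at 2.84, 5.12 and 3.38 CPM in WT, and in spermatocytes it was near 0 in both genotypes. The *Ctcf* level of the purified cells thus went against the label, and every purified-cell direction below is that of the libraries labelled CM. The summed level of 15 round spermatid markers was lower in CM (5503 to 15146 CPM) than in WT testis (20434 to 28287), while 15 Sertoli cell markers (822 to 1709 against 357 to 564), 10 Leydig cell markers (2026 to 4062 against 410 to 724) and 12 peritubular and stromal markers (369 to 718 against 107 to 198) were higher, with no overlap between the genotypes in any of these. In the purified cells, the summed spermatid markers were higher in WT round spermatids (3893 to 4056 CPM) than in WT spermatocytes (1238 to 1272 CPM), but in round spermatids labelled CM they summed to only 1861 to 2714 CPM, below all WT round spermatid libraries. The spermatocyte markers were lower in WT round spermatids than in WT spermatocytes (5984 to 6495 against 11530 to 12307 CPM), and the 15 Sertoli cell markers summed to at most 12.9 CPM in any WT or CM library. The part of these shifts in the results on whole testis and purified cells was not tested, and in bulk RNA fewer cells of a type and less RNA per cell cannot be told apart.

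RNA of CM-only promoter genes was mostly higher in CM than in WT whole testis. Of the 1376 tested, 534 (38.8%) were called higher and 44 (3.20%) lower by edgeR (quasi-likelihood test, Benjamini-Hochberg adjusted p below 0.05 and a change of more than 2-fold), where 15.3% of all 16378 genes were called higher and 5.9% lower. Their median log2 change was 0.94 against 0.00 over all genes, and 77.0% were above 0. Genes with peaks of both genotypes had 10.8% higher and 5.78% lower with a median of -0.08, genes without a peak 21.8% and 6.41% with a median of 0.20, and genes with WT peaks only 15.6% and 9.27%. In 691 CM-only promoter genes (50.2%) all 3 CM libraries stood above all 3 WT libraries and in 118 (8.58%) below, against 26.1% and 21.5% of all genes. The calls leaned on single libraries, and those over all genes did too. Without WT replicate 1, 297 of 1404 CM-only promoter genes were called higher, beside 1360 of 16719 genes in all. Without CM replicate 3, WT replicate 2 or WT replicate 3, 0 were called in either direction. Over all genes these 3 fits called 2, 4 and 1 higher and 2, 7 and 2 lower. Their smallest edgeR adjusted p among CM-only promoter genes was between 0.0572 and 0.0626. In those last 3 fits 682 to 748 of the genes had an unadjusted p below 0.05 and the median log2 change stayed between 0.93 and 0.97. DESeq2 on all libraries called 585 higher and 59 lower, where 16.8% of all genes were called higher and 7.86% lower.

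**Figure D3:**
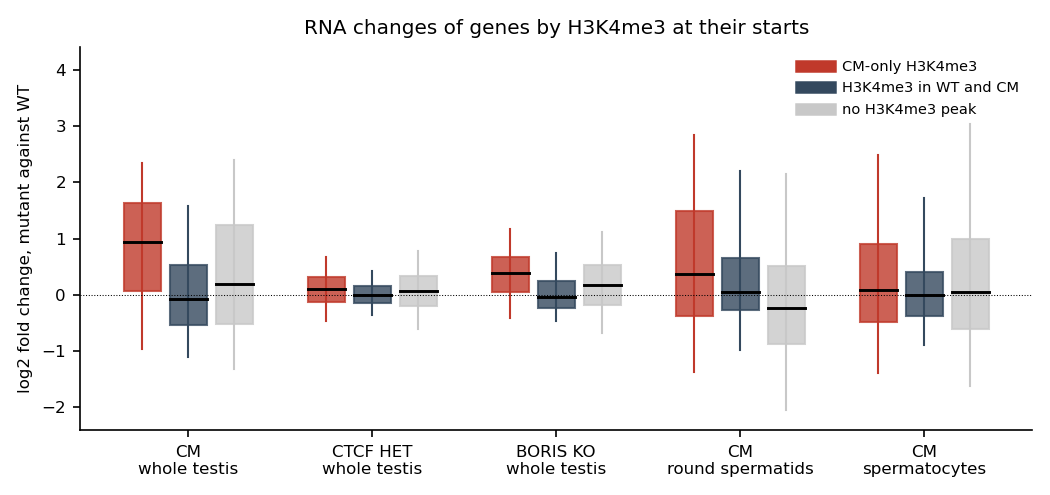
log2 fold change of RNA against WT (y axis) for CM, CTCF HET and BORIS KO whole testis and for CM round spermatids and spermatocytes (x axis), for genes with CM-only H3K4me3, H3K4me3 in both genotypes or no peak at their starts. Black lines are medians, boxes span the middle 50% of genes and whiskers the 5th to 95th percentiles. CM-only promoter genes have the highest median in CM whole testis (0.94).

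Genes entered this count partly through the low-count filter. In 179 of the 1376 all CM libraries but not all WT libraries reached the limit of 10 counts, and 92 of these were called higher and 0 lower, a direction that the filter favours. Among the other 1197 genes 442 (36.9%) were called higher and 44 lower, so the share was close to that of the whole. Of the 1333 protein-coding genes 525 were higher and 42 lower.

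The share of genes called higher ranged widely with Pol2 at the peak and little with CTCF or BORIS. Among 306 genes whose CM-only peak had Pol2 in CM only, 154 (50.3%) were higher and 2 lower, with a median log2 change of 1.21. With Pol2 in both genotypes it was 34 of 147 higher and 9 lower (median 0.39), and with Pol2 in WT only 1 of 24 higher and 5 lower (median -0.64). The 899 genes without Pol2 in either list had 345 higher and 28 lower (median 0.93). With a WT CTCF peak under the CM-only peak 39.6% of 379 genes were higher, against 38.5% of 997 without one, and with WT BORIS 37.9% of 161. By the score of the peak, 34.4% were higher at scores under 80, 41.5% at 80 to 120, 38.8% at 120 to 200 and 42.4% at 200 or more. The differences between these splits were not tested.

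On the X chromosome, which is silenced as a whole in meiotic spermatocytes, 88 CM-only promoter genes were tested and 53 (60.2%) were higher and 1 lower, with a median log2 change of 1.4. On the autosomes 479 of 1286 (37.2%) were higher and 43 lower. All X-linked genes leaned the same way, with 199 of 626 (31.8%) higher and a median of 0.65, against 15% of all autosomal genes, so the X-linked genes are to be read against that chromosome's own background.

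The 12 CM-only promoter genes with the smallest p among those called higher were *Htra1*, *Nid2*, *Fam115a*, *Gadd45a*, *Pyroxd2*, *Gpt2*, *Ptrf*, *Trf*, *Cask*, *Ccnd2*, *Aldh1b1* and *Mid1*, with log2 changes from 2.03 to 3.76 and edgeR adjusted p between 0.0139 and 0.0151. In each of them all 3 CM libraries were above all 3 WT libraries. *Htra1*, a secreted serine protease, was at 8.20, 6.86 and 6.53 CPM in WT and at 72.2, 36.1 and 78.9 CPM in CM testis, a log2 change of 3.08 ± 0.33 (SE). Its peak at chr7:138079855-138080724 scored only 60.6, so a low score went together with a large change in RNA here. *Nid2*, a basement membrane glycoprotein, was at 11.7, 8.93 and 7.39 CPM in WT and at 103, 45.5 and 56.1 CPM in CM (log2 change 2.82 ± 0.34). It was the 1 CM-only promoter gene that edgeR also called in BORIS KO testis, where it was at 57.7, 40.3 and 39.9 CPM (log2 change 2.29 ± 0.20, adjusted p = 0.00891). The KO levels of *Nid2* overlapped those of CM and lay above all WT and CTCF HET libraries.

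*Gadd45a*, a stress-induced regulator of DNA repair and growth arrest, rose from 0.236, 0.388 and 0.430 CPM in WT to 3.54, 2.81 and 5.68 CPM in CM testis (log2 change 3.54 ± 0.46). The BORIS KO libraries of *Gadd45a* lay between the other groups, at 1.10, 1.11 and 1.54 CPM, above all WT and below all CM libraries, and their change passed only with the replicate block (edgeR adjusted p = 0.0338). *Gpt2*, the mitochondrial alanine aminotransferase, was at 37.3, 19.6 and 20.1 CPM in WT and 315, 116 and 256 CPM in CM (3.13 ± 0.41). The BORIS KO values of *Gpt2*, 46.5, 98.0 and 80.1 CPM, also lay above all WT and below all CM values, although the change of 1.57 ± 0.33 did not pass edgeR's test there (adjusted p = 0.182) and did pass that of DESeq2 (adjusted p = 0.00168). *Ccnd2*, a D-type cyclin that drives entry into S phase, was at 2.24, 2.27 and 1.98 CPM in WT and 26.7, 8.25 and 18.4 CPM in CM (2.99 ± 0.43). *Cask*, an X-linked scaffold kinase of cell junctions, was at 2.18, 2.20 and 1.46 CPM in WT and 13.8, 7.03 and 10.8 CPM in CM (2.39 ± 0.34). The other genes of this group include *Ptrf*, which coats caveolae, *Trf*, the iron carrier transferrin that Sertoli cells secrete, *Aldh1b1*, a mitochondrial aldehyde dehydrogenase, and *Mid1*, an X-linked ubiquitin ligase on microtubules.

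*Kit* encodes the receptor of stem cell factor, which is needed by differentiating spermatogonia and is normally switched off in meiosis. Its CM-only peak at chr5:75970977-75972061 scored 71.6 and lay within the first part of the gene. *Kit* RNA was at 32.3, 34.5 and 15.6 CPM in WT, 60.0, 26.6 and 20.4 CPM in CTCF HET, 48.5, 48.8 and 71.9 CPM in BORIS KO and 361, 76.9 and 183 CPM in CM testis. The log2 change in CM was 2.86 ± 0.53 (edgeR adjusted p = 0.0159), with all CM libraries above those of every other genotype although they spread widely among themselves. In round spermatids *Kit* was at 3.55, 4.88 and 5.39 CPM in WT and 5.20, 41.9 and 13.3 CPM in the libraries labelled CM. There the groups overlapped in 1 library, and the log2 change of 2.27 ± 0.73 did not pass edgeR's test (adjusted p = 0.179) but passed that of DESeq2 (adjusted p = 0.0101). In spermatocytes *Kit* stayed below 1.3 CPM in all libraries, with a log2 change of 0.50 ± 0.51.

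**Figure D4:**
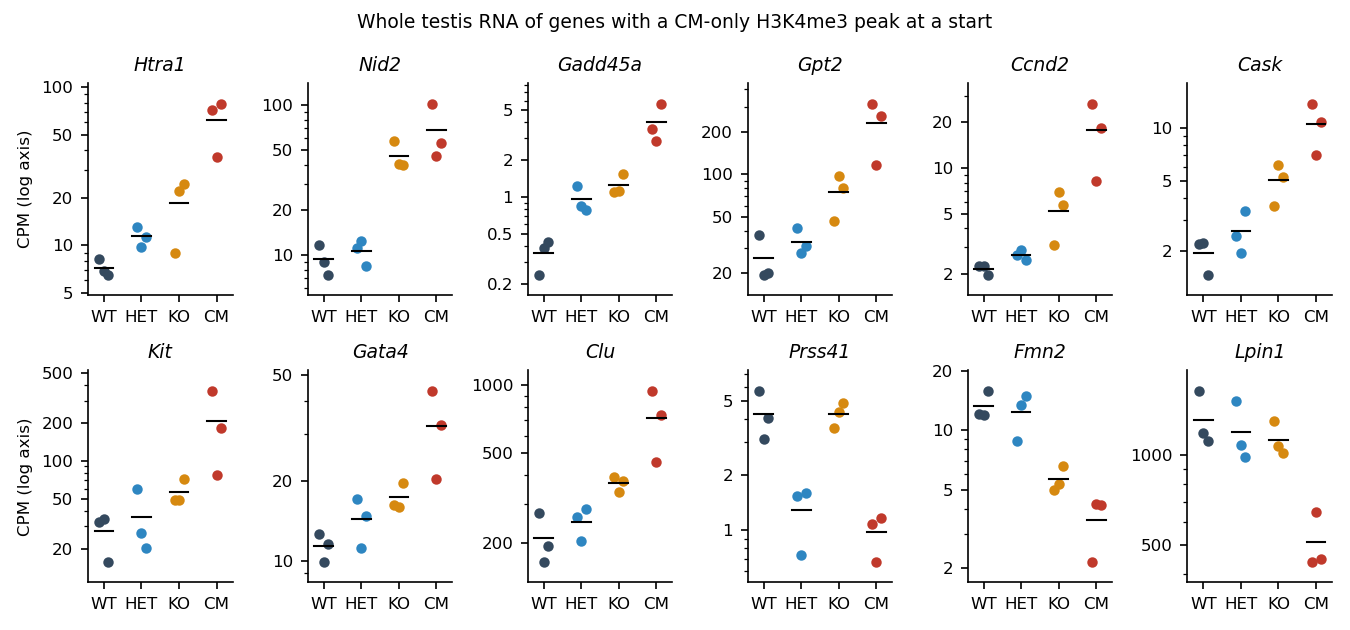
RNA level in CPM (y axes, log scale) in each whole testis library by genotype (WT, HET for CTCF HET, KO for BORIS KO, and CM, with 3 libraries each) for 12 named genes with a CM-only H3K4me3 peak at a start, with black lines at the mean. All CM libraries lie above all WT libraries for the 9 genes called higher and below them for *Prss41*, *Fmn2* and *Lpin1*.

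A few CM-only promoter genes went the other way. Among those called lower with the smallest p were 7 genes, *Prss41*, *Plekho2*, *Fam124a*, *Fmn2*, *Aldoart1*, *Pla2g4e* and *Lpin1*, with log2 changes from -2.82 to -1.36 and edgeR adjusted p between 0.0154 and 0.0165. *Prss41*, a testis serine protease, was at 5.69, 3.11 and 4.04 CPM in WT and at 1.08, 0.672 and 1.17 CPM in CM. It was also low in CTCF HET, at 1.52, 0.729 and 1.58 CPM, below all WT libraries, and it was 1 of 3 CM-only promoter genes called in CTCF HET when the replicate number entered the fit. *Fmn2*, a formin that nucleates actin, was at 12.1, 12 and 15.8 CPM in WT and 2.16, 4.22 and 4.2 CPM in CM, with BORIS KO in between at 4.98, 5.32 and 6.60 CPM, a change that passed with DESeq2 (adjusted p = 0.000549) and with the replicate block (adjusted p = 0.00650) but not in edgeR's unblocked fit (adjusted p = 0.160). *Lpin1*, a phosphatidate phosphatase of lipid synthesis, was at 1645, 1189 and 1121 CPM in WT and at 441, 647 and 450 CPM in CM. *Aldoart1*, a germ cell aldolase, was at 129, 106 and 74.3 CPM in WT and 37.0, 48.3 and 36.9 CPM in CM. In these 7 genes a newly listed H3K4me3 peak at the start stood beside less RNA, with all CM libraries below all WT libraries.

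The CM-only promoter genes with the highest peak scores varied in their RNA change. *Stard4* was called higher (4.45, 5.37 and 3.61 CPM in WT, 17.4, 12.4 and 15.6 CPM in CM, log2 change 1.72 ± 0.28). *Spred2* had a log2 change of -0.05 ± 0.29, with 3.86, 3.37 and 3.96 CPM in WT and 3.71, 3.06 and 4.28 CPM in CM. *Uckl1* (0.05 ± 0.33) and *Gm16119* (0.62 ± 0.53) did not pass the test, and *Gm14329* had no row in the count table. *Txnip*, named here for its wide peak after its values were seen, was called higher, from 90.8, 89.3 and 38.9 CPM in WT to 592, 212 and 384 CPM in CM (2.40 ± 0.43).

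CM-only H3K4me3 was listed at 7 of 15 Sertoli cell marker genes and at none of the spermatid and spermatocyte markers, beside 5.4% of all symbols. Of the 15 Sertoli cell markers with an annotated start, 7 were CM-only promoter genes: *Wt1* and *Gata4*, which encode transcription factors, *Clu*, which encodes clusterin, *Cldn11*, the claudin of the blood-testis barrier, *Inha* and *Inhbb*, which encode inhibin subunits, and *Aard*. *Gata4* (log2 change 1.46 ± 0.30) and *Clu* (1.73 ± 0.31) were called higher in CM testis and the other 5 did not pass, although *Inha* did with the replicate block (1.07, edgeR adjusted p = 0.00318). *Clu* was at 272, 166 and 194 CPM in WT and 947, 458 and 741 CPM in CM, with BORIS KO between them at 392.1, 337 and 378 CPM. Of all the tested Sertoli cell markers 6 of 14 were called higher and 0 lower, beside 15.3% higher and 5.9% lower of all genes and 38.8% and 3.20% of CM-only promoter genes. All 14 spermatocyte and all 15 round spermatid markers had peaks of both genotypes.

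The markers of other somatic cells mostly lacked CM-only peaks even where their RNA was higher. None of 10 Leydig cell markers was a CM-only promoter gene, although 7 of 10 were called higher in CM testis, beside 15.3% of all genes, the share against which the counts of the other lists are also to be read. Of 15 macrophage and immune cell markers only *Cd14*, a receptor for bacterial lipopolysaccharide, was one, with 0.914, 0.712 and 0.688 CPM in WT and 3.56, 1.41 and 5.37 CPM in CM (2.09 ± 0.50), while 13 of the 15 were called higher. Of 12 peritubular and stromal markers *Col1a2*, a chain of type I collagen, had a CM-only peak and was called higher (1.72 ± 0.42), as were 7 of the 12 in all. Of 10 endothelial markers *Vwf*, which encodes von Willebrand factor, and *Flt1*, a receptor of vascular endothelial growth factor, had CM-only peaks and were called lower, with log2 changes of -1.01 ± 0.31 and -1.22 ± 0.31. The change of *Vwf* was at the 2-fold limit, and its RNA fell by 0.98 on the log2 scale with the replicate block, short of it. Over the whole endothelial list 3 of 9 tested markers were called higher and these 2 lower, with a median log2 change of 1.02.

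Of 18 spermatogonial markers *Kit* and *Etv5*, a transcription factor needed to maintain spermatogonial stem cells, were CM-only promoter genes. Both were called higher, *Etv5* from 13.4, 9.84 and 10.6 CPM in WT to 30.5, 17.7 and 22.6 CPM in CM (1.03 ± 0.27). Its change was close to the 2-fold limit and fell under it with RLE scaling and with DESeq2. Over the whole spermatogonial list 4 of 16 tested markers were called higher and 0 lower, with a median log2 change of 0.31. The summed level of the 18 markers overlapped between genotypes, at 528 to 829 CPM in CM (median 531) and 663 to 712 CPM in WT testis. Among 43 collagen genes 11 had CM-only promoters, and 5 of the 10 tested were called higher and 0 lower. Of all tested collagen genes 10 of 41 were called higher and 3 lower (15.3% and 5.9% of all genes). *Col4a1* and *Col4a2*, chains of basement membrane collagen, share a promoter and the peak at chr8:11311930-11313495, and were called higher by 2.25 ± 0.59 and 1.54 ± 0.39 on the log2 scale. *Col4a1* was at 74, 33.5 and 26.1 CPM in WT and 432, 113 and 107 CPM in CM.

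Canonical histone genes held 15 CM-only promoters among 68, with 4 of 12 tested called higher, a share near the 38.8% of all CM-only promoter genes. *Hist1h1c*, a linker histone, was at 4.93, 4.47 and 7.31 CPM in WT and 7.65, 16.8 and 38.8 CPM in CM (1.89 ± 0.56, edgeR adjusted p = 0.0388). *Hist1h4c* passed only with the replicate block (1.09, edgeR adjusted p = 0.0230). Histone genes are near-identical copies, so reads may have been split between them. Their messages mostly lack a poly(A) tail, which limits their recovery in the purified-cell libraries, made from poly(A) RNA. Among 98 genes listed under ribosomal protein symbols, 87 had peaks of both genotypes and 4 were CM-only promoter genes, all 4 of them called higher. *Rpl10* (2.04 ± 0.38) and *Rpl36a* (1.73 ± 0.33) are X-linked genes of ribosomal proteins with near-identical copies elsewhere in the genome, and *Rps6ka2* and *Rps6kb2* encode kinases rather than ribosomal proteins. *Rpl10* was at 8.82, 6.73 and 4.30 CPM in WT and 29.4, 16.1 and 38.3 CPM in CM.

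Of 171 developmental transcription factor genes 10 were CM-only promoter genes, a share near the 5.4% of all symbols, and 3 of the 6 tested were called higher, among them *Hoxd3* (1.73 ± 0.49). Over the whole list 13 of 86 tested were called higher and 7 lower, with a median log2 change of -0.21. *Sox6*, a SOX family factor, had a log2 change of -0.75 ± 0.21, under the 2-fold limit. Of 26 interferon and cytokine genes *Irf1*, an interferon response factor, was called higher, from 1.47, 1.23 and 1.20 CPM in WT to 7.47, 3.61 and 3.58 CPM in CM (1.87 ± 0.38), and *Cxcl1* was too low to be tested. Of 19 immediate-early genes, which respond to tissue handling, only *Atf3* and *Btg2* were CM-only promoter genes. *Atf3* was not tested, and *Btg2* did not pass (1.21 ± 0.53) except with the replicate block (1.13, edgeR adjusted p = 0.00764). Only 3 of 1406 olfactory and vomeronasal receptor genes carried a CM-only peak, and all 3 were below the low-count filter in whole testis.

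**Figure D5:**
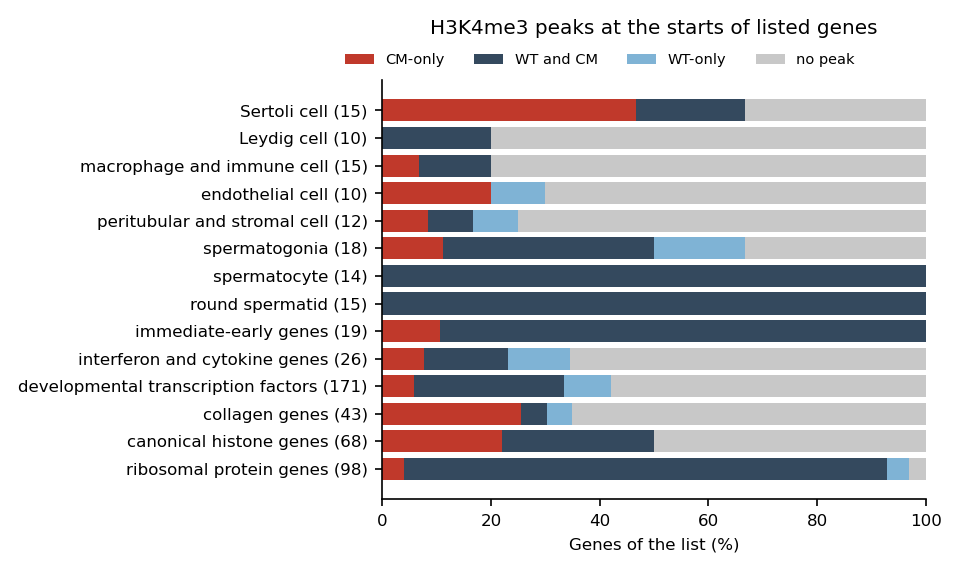
Percent of the genes of each list (x axis) whose starts carry only a CM H3K4me3 peak, peaks of both genotypes, only a WT peak or no peak, with the number of annotated genes in brackets; the olfactory receptor list is left out. Sertoli cell markers have the largest CM-only part (7 of 15) and all spermatocyte and round spermatid markers have peaks of both genotypes.

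In the single mutants, compared with the same 3 WT libraries as CM, few of these genes were called, although in BORIS KO most lay above 0. In CTCF HET testis edgeR called 0 of 1318 CM-only promoter genes, against 0.00621% of all genes, with 55 at an unadjusted p below 0.05 and 0 by DESeq2, and the median log2 change was 0.10. With the replicate number as a block, 3 genes were called, *Prss41*, *Rtkn2* and *Slc22a17*, against 0.112% of all genes. In BORIS KO testis edgeR called *Nid2* alone of 1359 genes (0.0551% of all genes). The median log2 change in BORIS KO was 0.38 against 0.03 over all genes, 77.9% of the genes were above 0 against 52.2%, and 375 (27.6%) had an unadjusted p below 0.05 against 16.6%. DESeq2 called 29 higher and 7 lower there (1.38% of all genes in either direction), and the block fit 39 higher and 6 lower (1.67%). Summed Sertoli cell markers were at 612 to 788 CPM in BORIS KO testis and 357 to 564 CPM in WT. Leydig cell markers were at 840 to 1580 against 410 to 724 CPM. Peritubular and stromal markers overlapped, at 171 to 275 against 107 to 198 CPM, as did round spermatid markers, at 17298.5 to 30451.7 against 20433.9 to 28286.8 CPM. The part of these levels in the BORIS KO shift was not tested.

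In the purified cells fewer changes passed the test between the libraries labelled CM and WT, with the *Ctcf* level of the former not reduced. In round spermatids edgeR called 0 of the 1085 CM-only promoter genes tested (0.00654% of all genes called), with 245 at an unadjusted p below 0.05 and a median log2 change of 0.37. DESeq2 called 121 higher and 32 lower (9.14% of all genes in either direction). With all 4 genotypes in 1 edgeR fit, which share the estimate of spread, 144 of 1203 were higher and 58 lower. Over all 16200 genes of that fit 1217 were higher and 770 lower. Without CM replicate 1 edgeR called 43 of 1149 higher and 24 lower, beside 380 and 431 of 15813 genes in all. The median depended on 1 library: it was 0.11 without CM replicate 2, the library in which *Kit* stood at 41.9 CPM, *Cask* at 19.3 and *Txnip* at 28.1 against 0.776 to 13.3 CPM for these genes in the other CM libraries. In spermatocytes edgeR called 2 of 1045 (0.434% of all genes called), with a median of 0.08, and DESeq2 58 higher and 20 lower (7.79% in either direction). Without CM replicate 1 edgeR called 85 of 982 higher and 69 lower in spermatocytes, and without any other single library 0. Over all 14317 genes of the fit without CM replicate 1, 1232 were higher and 931 lower.

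The 2 genes called in spermatocytes, named after their values were seen, were *Fmnl1*, a formin-like regulator of actin, and *Ndufa1*, an X-linked subunit of mitochondrial complex I. *Fmnl1* was at 29.2 and 32.2 CPM in WT and 12, 11.7 and 9.55 CPM in CM spermatocytes (log2 change -1.43 ± 0.16, edgeR adjusted p = 0.0360). *Ndufa1* was at 4.51 and 4.15 CPM in WT and 14.7, 15.5 and 11.0 CPM in CM (1.71 ± 0.22, adjusted p = 0.0426). Both were also called in the same direction in whole testis, at -1.11 ± 0.25 and 1.47 ± 0.37. In round spermatids *Ndufa1* was at 6.44, 4.28 and 4.08 CPM in WT and 10.0, 19.3 and 9.40 CPM in CM, without overlap, but the change passed there only with DESeq2 (adjusted p = 0.0103, against 0.169 with edgeR).

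The CM effect in round spermatids was also tested against that in spermatocytes, a difference that passed for 3.51% of 17077 genes (edgeR interaction, adjusted p below 0.05). Of the 57 named genes in that fit only *Aldoart1* passed. It was at 107, 111 and 117 CPM in WT and 46.0, 54.6 and 42.2 CPM in CM round spermatids, and at 1.24 and 1.12 CPM in WT and 1.90, 3.71 and 7.68 CPM in CM spermatocytes. Neither cell type overlapped between genotypes, and the directions were opposite.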

How the data were processed

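The authors aligned ChIP-seq reads to mm9 with Bowtie2 and called peaks with MACS. They deposited coverage signal and 1 peak list per factor and genotype, with a height for CTCF and BORIS and a MACS score for H3K4me3 and Pol2. How the score was scaled is not given in the sources used here. The authors aligned RNA reads of rRNA-depleted whole testis (single-end Ion Proton, TopHat2 and Bowtie2) and of poly(A) RNA from purified cells (Illumina), and deposited raw counts per gene symbol; the counting tool and the use of strand are not given, so antisense and overlapping genes cannot be told apart. 0 sample columns had no sample here.

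Peak overlaps of at least 1 bp were found with bedtools 2.31.1. Starts came from GENCODE on NCBIM37, the same build as mm9, and sequences from that genome. Counts were tested with edgeR 4.0.16 in R 4.3.3 (TMM scaling, at least 10 counts in enough libraries and 15 in all, quasi-likelihood test, Benjamini-Hochberg adjustment over all genes of a comparison, called at adjusted p below 0.05 and more than 2-fold), each mutant against WT, with DESeq2 1.42.0, a replicate block, RLE scaling, other filters and left-out libraries as alternatives. The interaction of genotype and cell type was fitted with edgeR on the WT and CM purified-cell libraries. The scripts were tested on simulated data. Levels are CPM from TMM-scaled counts.

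Named genes were the 12 called higher and 8 called lower with the smallest p (1 of them is not reported here), the genes of the 5 highest peak scores, up to 4 members of each list with the highest mean expression, *Ctcf*, *Ctcfl* and *Kit*; *Txnip*, *Fmnl1* and *Ndufa1* were added after their values were seen. The peaks, lists and tests were chosen with earlier results of these data known. Whole testis libraries came from separate preparations of pooled mice; where the purified-cell libraries came from is not given, so p-values there measure only the spread between these libraries, which may be technical. Same-numbered whole testis libraries deviated together in 18 of 18 pairs (correlations 0.12 to 0.63), so their numbers were taken to pair them. The unblocked edgeR fits, including those with a library left out, did not use this pairing, while the replicate block did. In round spermatids 4 of 18 pairs and in spermatocytes 1 of 15 exceeded 0.1.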

Additional observations from a re-analysis of the deposited data

Results flagged for a closer look

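*Aldoart1* changed differently in the purified cell types, in libraries labelled CM whose *Ctcf* RNA was not below WT: the CM effect on its RNA in round spermatids minus that in spermatocytes was -3.17 on the log2 scale (edgeR interaction, adjusted p = 0.0206), with -1.14 in round spermatids and 1.96 in spermatocytes.

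For *Mid1* every CM round spermatid library was below every WT library (log2 change -0.44) and every CM spermatocyte library above (0.49), and for *Txnip* every CM round spermatid library was above (1.59) and every CM spermatocyte library below (-0.15). The differences between the cell types did not pass the interaction test (adjusted p = 0.473 and 0.25). Such separation was common: in round spermatids 11.4% of all tested genes had every CM library above every WT library and 17.8% below. In spermatocytes these shares were 22.8% and 31.5%.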

How the results depend on the processing

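The number and kind of CM-only peaks depended on the score asked of the CM peak. When only CM peaks in the upper 50% of CM scores were kept, with the WT list left whole, 456 peaks were CM-only. Of these 71.5% were at promoters, 61.6% had CM Pol2, 28.3% WT Pol2 and 24.6% WT CTCF. A promoter window of 500 bp gave 36.4% and one of 2 kb 43.5%. Requiring an overlap of 50% of the shorter peak gave CM Pol2 28.6% and WT Pol2 22%, and requiring no WT peak within 1 kb gave 23.6% and 15.4%. The score scale is unknown, and with 1 H3K4me3 library per genotype the depth of these libraries limits every statement that a WT peak was absent.

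In CM whole testis, leaving out single libraries gave 0 to 648 CM-only promoter genes called higher and 0 to 42 lower. Over all genes these fits gave 1 to 3303 higher and 2 to 1080 lower. At an adjusted p below 0.001, 0 were called in either direction by edgeR without the replicate block, where 811 had an unadjusted p below 0.05, while 182 were called with the block and 279 by DESeq2. Counting genes with a CM-only peak with or without a WT peak gave 89 lower. The median log2 change stayed between 0.75 and 1.18 over the alternatives. The replicate block gave 619 higher and 60 lower, beside 3002 and 1418 of all 16378 genes. It changed the calls of *Inha*, *Vwf*, *Btg2* and *Hist1h4c* among the named genes.

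In round spermatids the counts called higher and lower were 121 and 32 with DESeq2, 144 and 58 with all 4 genotypes in 1 fit, and 0 to 43 and 0 to 24 with single libraries left out; the median ran from 0.11 to 0.43. In spermatocytes they were 2 and 2 with RLE scaling, 58 and 20 with DESeq2, 4 and 3 without a low-count filter, 17 and 12 with all 4 genotypes in 1 fit, 0 and 0 at an adjusted p below 0.001, and 0 to 85 and 0 to 69 with single libraries left out. The replicate block gave 2 called higher in spermatocytes, and genes with or without a WT peak 4; the median ran from -0.10 to 0.15. The numbers did not pair the purified-cell libraries. The causes of these shifts were not tested. Over all genes, the fits with all 4 genotypes called 1217 higher and 770 lower in round spermatids and 326 and 189 in spermatocytes. No named gene reversed under any alternative run. Without CM replicate 3, WT replicate 2 or WT replicate 3, 42 of the named genes lost their call in whole testis, and with RLE scaling, DESeq2 or no low-count filter 1 did in each.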
